A study of Mus musculus with 24 samples.

Results

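RNA from whole lysates of the dorsal striatum (DS) and the nucleus accumbens (Acb) was compared between wild-type mice and rpS6P-/- knockin mice, to ask whether the knockin changed steady-state RNA differently in the 2 regions. The comparison used the 12 whole-lysate libraries of the series, out of 24 libraries in all, chosen by their fraction, region, genotype and replicate labels and not by any measured value. They form 4 groups of 3 biological replicates, called Acb wild-type, Acb rpS6P-/-, DS wild-type and DS rpS6P-/- here (Nac_wt, Nac_KI, DStr_wt and DStr_KI in the labels). The other 12 libraries hold heavy polysomal fractions of the same 4 groups, and they served only to show whether a difference seen in lysates was also measured there. All mice shared a mixed C57Bl/6, Sv129 and ICR background, and wild-type mice were littermates of rpS6P-/- mice from crosses of heterozygous parents. Knockin mice carry the altered *Rps6* gene in every cell from conception, and each library pools tissue from several mice, with both sexes used in the study, so differences between single animals cannot be seen.

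Ribosomal protein S6 (rpS6) is a component of the small ribosomal subunit. Kinases downstream of mTOR and of cAMP and ERK signalling phosphorylate serines at its C-terminal end, and this phosphorylation is widely used as a mark of neuronal activity in the striatum. In rpS6P-/- mice the 5 serines are replaced by alanines, so the protein is made but cannot be phosphorylated at these sites. The DS and the Acb are both built mainly of GABAergic medium spiny neurons that express dopamine receptors. The DS is tied to motor control and habits, and the Acb to reward and motivation.

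The wild-type coding sequence of the altered residues, codons 232 to 249 of *Rps6*, is shown because it defines the genotype. It lies in exon 5 of 5, at chr4:86854705-86854758 on the minus strand of GRCm38 (GENCODE M21), and is given 5′ to 3′ with the codons of S235, S236, S240, S244 and S247 in capitals.
*Rps6*: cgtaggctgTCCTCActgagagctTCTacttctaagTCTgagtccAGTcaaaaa
Reads over these codons cannot be told apart by genotype in a count table, so the level of *Rps6* does not check the labels. It stood at 370, 416 and 457 CPM (reads scaled to a common library total, with edgeR TMM factors from the 12 lysates) in Acb wild-type replicates 1 to 3 and at 415, 412 and 370 CPM in Acb rpS6P-/-. In the DS the corresponding levels were 317.9, 310.6 and 249.4 CPM in wild-type and 299, 278 and 287 CPM in rpS6P-/-. The genotypes overlapped in both regions, and the interaction estimate for *Rps6* was -0.03 ± 0.151 (SE) on the log2 scale, with a 95% interval of -0.33 to 0.27.

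Lysate libraries held 9280589 to 20259509 reads assigned to genes, and pairwise correlations of log2 levels between replicates of a group ranged from 0.9389 to 0.9751. *Bc1*, a short noncoding RNA of neuronal dendrites, took 15.15% to 26.1% of these reads. The labelled tissue was checked against its markers. All 11 medium spiny neuron markers were above 0 in every group, with a summed level of 6118 to 7186 CPM in Acb libraries and 7098 to 8597 CPM in DS libraries. The regions separated by their own markers: the 8 ventral striatum genes summed to 1132 to 1318 CPM in Acb and 248 to 302 CPM in DS, with no overlap. The *Slc17a7*-led list of 9 cortical excitatory neuron genes summed to 157 to 266 CPM in Acb and 775 to 967 CPM in DS, so DS dissections carried more RNA of that kind in both genotypes. In bulk tissue such as this, fewer cells of a type and less RNA per cell cannot be told apart.

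The interaction is the log2 ratio of rpS6P-/- to wild-type in the Acb minus that ratio in the DS. A positive value means that the knockin level, relative to wild-type, was higher in the Acb than in the DS. Of 16364 genes tested with edgeR's quasi-likelihood test, 1 had an adjusted p under 0.05 (Benjamini-Hochberg), which is 0.00611% of genes. That gene was *Kif3a*, which encodes a motor subunit of the kinesin-2 complex that carries cargo along axons and cilia. At an unadjusted p under 0.05 there were 837 genes, or 5.11%, of which 416 were positive (2.54%) and 421 negative (2.57%). The next lowest adjusted p was 0.273 by the same edgeR test, shared by *Hspa5*, *Tmem38b* and *Nrgn*, so every other gene named below failed the correction for the interaction in this fit and is given as values. With a replicate block on number, *Bc1*, *Cox8a*, *Hspa5*, *Nrgn* and *Tmem38b* passed beside *Kif3a*, and all of these but *Cox8a* passed with a block on genotype and number. Among the 11491 genes with at least 50 reads per library on average, the median absolute interaction was 0.206 on the log2 scale and its 95% interval reached a median of 0.602 to either side. For 7104 of them (61.8%) this interval lay within -1 and 1, which does not hold a 2-fold difference between the genotype ratios of the regions. For 1806 (15.7%) it lay within -0.5 and 0.5.

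**Figure D1:**
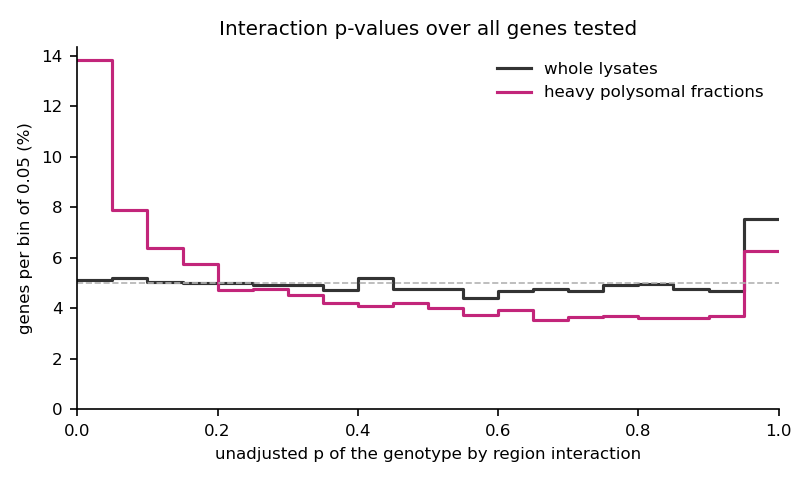
Percent of genes tested (vertical axis) in each bin of 0.05 of the unadjusted interaction p (horizontal axis), for whole lysates (dark line) and heavy polysomal fractions (magenta line); the dashed line marks 5% per bin. The lysate line has 5.11% in the first bin, 4.41% to 5.19% in all bins but the last and 7.55% in the last, while the heavy polysomal line has 13.8% in the first.

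The 2 genotype effects that make up the interaction were small in both regions. In the Acb, 2 genes passed (0.0122%), *Tmem38b* and *Kif3a*, both higher in rpS6P-/-. DESeq2 called neither and called 1 gene, *Ecscr*, lower in rpS6P-/-. In the DS, 10 genes passed (0.0611%). *Cwc22*, a splicing factor that links to the exon junction complex, was the only one higher in rpS6P-/- (0.00611%), and *Pcsk1n*, *Rpl27a*, *Cox8a*, *Ubald1*, *Nrgn*, *Abhd8*, *Lrrc4b*, *C1qtnf4* and *Tpgs1* were lower (0.055%). Unadjusted p under 0.05 was reached by 698 genes in the Acb (4.27%) and by 1098 in the DS (6.71%). Across the 11491 better covered genes the genotype effects of the 2 regions, which come from separate libraries, had a Spearman rho of 0.0566, given as a description across genes that are not independent. Levels of the genotypes did not overlap in the Acb for 905 genes (7.88%) and in the DS for 1754 genes (15.3%). For 67 genes (0.583%) they did not overlap in either region and went opposite ways, and for 69 genes (0.6%) they went the same way. Of the 67, 35 were higher in rpS6P-/- in the Acb and lower in the DS, and 32 the reverse.

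**Figure D2:**
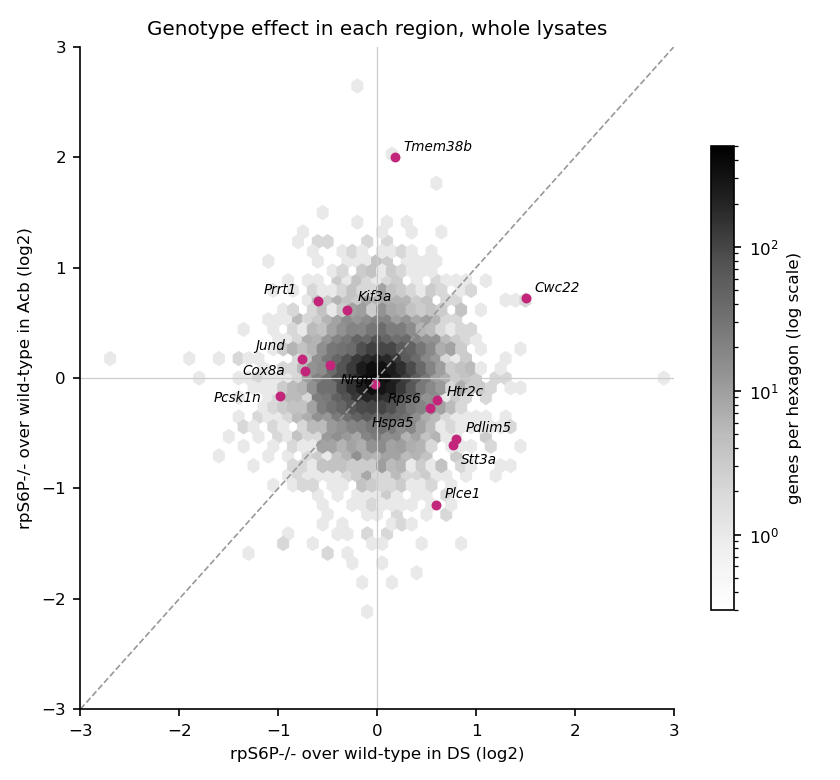
Genotype effect in the Acb (vertical axis, log2 of rpS6P-/- over wild-type) against that in the DS (horizontal axis, same unit) for the 11491 genes with at least 50 reads on average, as the number of genes per hexagon on a log grey scale, with named genes in magenta; the dashed line marks equal effects. *Kif3a* and *Prrt1* lie in the upper left, *Hspa5*, *Htr2c*, *Pdlim5*, *Stt3a* and *Plce1* in the lower right, and *Cwc22* is higher in rpS6P-/- in both regions.

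*Kif3a* (chr11:53565701-53604248, GRCm38) had 416, 589 and 675 CPM in Acb wild-type and 1033, 792 and 754 CPM in Acb rpS6P-/-. In the DS it had 543, 577 and 705 CPM in wild-type and 496, 519 and 464 CPM in rpS6P-/-. The knockin libraries were thus all above wild-type in the Acb and all below wild-type in the DS. The interaction was 0.92 ± 0.165 on the log2 scale (edgeR, adjusted p = 0.00848, n = 3 per group), made of 0.62 in the Acb (adjusted p = 0.0131 with edgeR) and -0.30 in the DS (adjusted p = 0.566 with edgeR). The size was steady between 0.75 and 1.08 in all other settings tried. The call was lost with DESeq2, with robust empirical Bayes, with the filterByExpr filter, with all 24 libraries in one fit, and on leaving out Acb wild-type replicate 1, Acb rpS6P-/- replicate 1, DS wild-type replicate 3 or DS rpS6P-/- replicate 3. Adjusted p-values for these were 0.0503 to 0.934.

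The counts of *Kif3a* have to be read together with those of *Bc1*. *Bc1* stood at 170174, 179897 and 267425 CPM in Acb wild-type and 274892, 210337 and 207009 CPM in Acb rpS6P-/-. In the DS it stood at 200460, 208836 and 266275 CPM in wild-type and 228775, 212207 and 140214 CPM in rpS6P-/-. Its own interaction, 0.38 ± 0.144, had the sign of that of *Kif3a*, with groups that overlapped in both regions and an adjusted p of 0.953 in edgeR. The last exon of a *Kif3a* transcript (exon 18 of 18, annotated as untranslated) holds a stretch that matches *Bc1* on the same strand in 48 of 50 bases, the length of the reads. Its longest identical run is 27 bases long and is shown because it links the 2 RNAs. It lies at chr11:53601912-53601938 in *Kif3a* and at chr7:144914516-144914542 in *Bc1* (GRCm38, plus strand, GENCODE M21).
*Bc1* and *Kif3a*: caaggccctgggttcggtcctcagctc
Among the genes tested, 11 besides *Bc1* have an annotated transcript with a stretch that matches as well, *Kif3a* included. Of these 11, 8 had a positive interaction, beside 8139 of all 16364 genes tested. This search was made after the values of *Kif3a* had been seen. Of the 11 genes *Lrrc17*, which encodes a leucine-rich repeat protein, shares the longest run with *Bc1*, 82 bases, and its interaction was 1.28. *Timm22*, a translocase of the mitochondrial inner membrane, shares 27 bases and had 0.73. *Cnot3*, of the CCR4-NOT complex, shares 45 bases and had 0.81. *Lrrc17*, *Timm22* and *Cnot3* had an unadjusted p under 0.05, beside 5.11% of all genes tested. *Tatdn1* with 57 bases (0.09), *Supt7l* with 43 (-0.07) and *Sez6* with 43 (0.16) did not.

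Within a library, *Kif3a* reads amounted to 2.45, 3.27 and 2.52 per 1000 *Bc1* reads in Acb wild-type and to 3.76, 3.76 and 3.64 in Acb rpS6P-/-. In the DS they amounted to 2.71, 2.76 and 2.65 in wild-type and to 2.17, 2.45 and 3.31 in rpS6P-/-. In the Acb these ratios did not overlap between the genotypes, and in the DS they did. The ratio cannot tell how many reads counted for *Kif3a* came from *Bc1*. In heavy polysomal fractions, where *Bc1* stood at 8581 to 42399 CPM, *Kif3a* had 83.7 to 188 CPM and 3.74 to 14 reads per 1000 *Bc1* reads. *Lrrc17* had 7.43 to 30.8 CPM in lysates and 0.26 to 3.56 CPM in heavy polysomal fractions, each kind of library being scaled on its own. How many reads counted for *Kif3a* came from *Bc1* was not tested. Removing *Bc1* from the table before normalization left the interaction of *Kif3a* at 0.905. That removal changes the scaling only and keeps every read counted for *Kif3a*, so it cannot decide this.

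**Figure D3:**
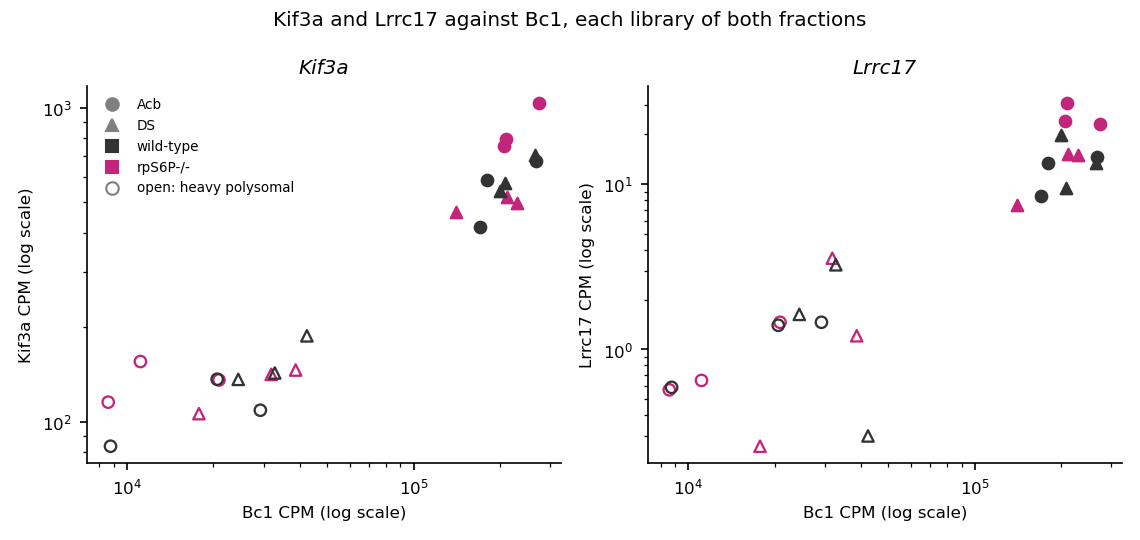
Levels of *Kif3a* (left) and *Lrrc17* (right) against *Bc1* in each library, in CPM on log axes, with filled symbols for whole lysates and open ones for heavy polysomal fractions, circles for Acb, triangles for DS, dark for wild-type and magenta for rpS6P-/-. Both genes and *Bc1* are lower in heavy polysomal fractions than in lysates, each kind of library being scaled on its own. For *Kif3a*, the Acb rpS6P-/- lysates (754 to 1033 CPM) lie above the other lysates.

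Among genes with positive estimates, *Nrgn* encodes neurogranin, a postsynaptic protein that binds calmodulin. It had 1789, 2168 and 2087 CPM in DS wild-type and 1403, 1468 and 1465 CPM in DS rpS6P-/-. In the Acb it had 444, 395 and 463 CPM in wild-type and 380, 512 and 524 CPM in rpS6P-/-. The genotypes were apart in the DS, where *Nrgn* fell by 0.48 on the log2 scale (edgeR, adjusted p = 0.0237), and overlapped in the Acb, and the interaction estimate was 0.60 ± 0.140. The call of *Nrgn* in the DS was lost with the trend on GC content or on transcript length removed. It was also lost with filterByExpr, with robust empirical Bayes and with all 24 libraries in one fit. Leaving out DS wild-type replicate 2 or 3, or any DS rpS6P-/- library, lost it too. *Nrgn* is also abundant in cortical excitatory neurons, and it was higher in DS than in Acb in both genotypes by 2.21 and 1.61 on the log2 scale, as were the cortical markers. The summed level of those markers in the DS was 775, 857 and 967 CPM in wild-type and 795, 852 and 795 CPM in rpS6P-/-. These sums overlapped, while 8 of the 9 markers had a positive interaction estimate and 1 a negative one, with a median of 0.46. The part of cortical RNA in the *Nrgn* estimate was not tested.

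*Prrt1* encodes a transmembrane protein found with AMPA receptors. It had 16.6, 11.3 and 14.7 CPM in Acb wild-type and 22.6, 25.9 and 20.8 CPM in Acb rpS6P-/-. In the DS the order was turned, with 33.4, 29.2 and 34.5 CPM in wild-type and 26.0, 17.9 and 20.1 CPM in rpS6P-/-. No library overlapped between genotypes in either region. The interaction estimate was 1.30 ± 0.323, with an adjusted p of 0.404 in edgeR, and in wild-type the gene was 1.19 lower in the Acb on the log2 scale while in rpS6P-/- the regions differed by 0.11.

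*Cox8a*, a subunit of cytochrome c oxidase, had 113, 207 and 148 CPM in DS wild-type and 91.7, 87.5 and 103 CPM in DS rpS6P-/-. It passed in the DS at -0.73 (edgeR, adjusted p = 0.019), with Acb libraries at 83.7 to 132 CPM in wild-type and 113 to 118 CPM in rpS6P-/-, and its interaction estimate was 0.79 ± 0.205. This DS call was lost with limma-voom, with the GC trend removed, with filterByExpr, with robust empirical Bayes and with all 24 libraries in one fit. *Lrrc4b*, a synaptic adhesion protein, gave 0.80 ± 0.216, and *Jund*, an AP-1 transcription factor, gave 0.94 ± 0.265. In the DS, where rpS6P-/- had the lower mean, the genotypes were apart for *Jund* and overlapped for *Lrrc4b* through DS wild-type replicate 1 (50.4 CPM against up to 51.0 CPM), and both overlapped in the Acb. *Dmwd*, a WD-repeat protein gene next to *Dmpk*, gave 0.69 ± 0.191 with no overlap in either region. *Pcsk1n*, the precursor of an inhibitor of prohormone convertase 1, fell in the DS by 0.98 (edgeR, adjusted p = 0.00792) with wild-type libraries at 58.8, 154 and 78.4 CPM against 43.4, 48.9 and 55.5 CPM. Here the highest value came from DS wild-type replicate 2, and without that library none of the genotype effects in the DS passed. Without DS rpS6P-/- replicate 1 or without its replicate 2, only *Cwc22* passed in the DS.

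**Figure D4:**
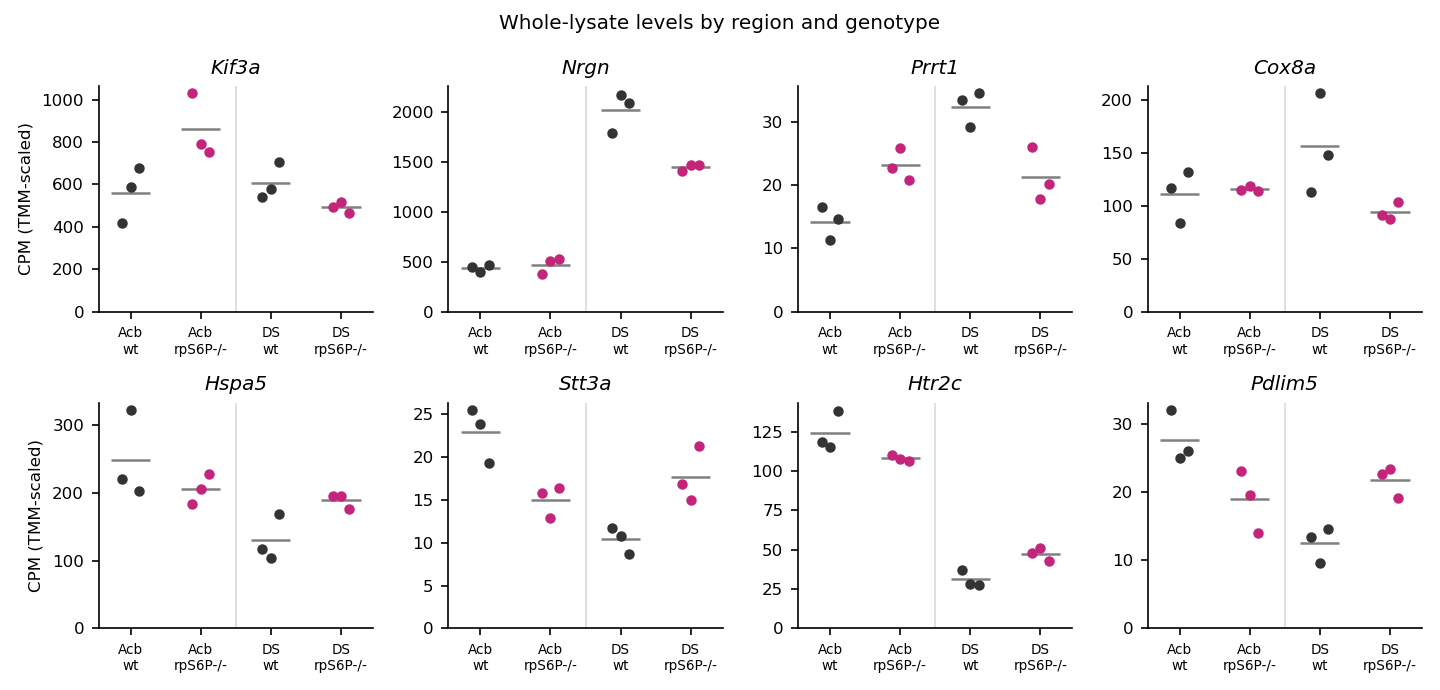
Level of 8 genes in each lysate library (CPM, vertical axes starting at 0) by region and genotype, with dark points for wild-type, magenta points for rpS6P-/- and a grey line at the mean of 3. *Kif3a*, *Prrt1*, *Stt3a*, *Htr2c* and *Pdlim5* show opposite orders of the genotypes in the Acb and the DS, without overlap in either region.

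Among genes with negative estimates, *Hspa5* came first. It encodes BiP, the main Hsp70 chaperone of the endoplasmic reticulum (ER). It had 221, 322 and 203 CPM in Acb wild-type and 183, 206 and 228 CPM in Acb rpS6P-/-. In the DS it had 117, 104 and 169 CPM in wild-type and 196, 195 and 176 CPM in rpS6P-/-. The knockin libraries were above wild-type in the DS and overlapped with it in the Acb, and the interaction estimate was -0.81 ± 0.191. *Stt3a*, the catalytic subunit of an oligosaccharyltransferase that attaches N-glycans in the ER, had 25.6, 23.9 and 19.3 CPM in Acb wild-type and 15.9, 12.8 and 16.5 CPM in Acb rpS6P-/-. In the DS it had 11.7, 10.7 and 8.73 CPM in wild-type and 16.9, 14.96 and 21.3 CPM in rpS6P-/-. No library overlapped in either region, and the estimate was -1.37 ± 0.369 with an adjusted p of 0.701 in edgeR.

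Because *Hspa5* and *Stt3a* both act in the ER, a list of 32 genes for ER folding and N-glycosylation was written after their values had been seen, and it is given as a description only. Of its members 23 had a negative and 9 a positive interaction, with a median of -0.24 beside 0.01 over the 11491 better covered genes. *Canx*, encoding the lectin chaperone calnexin, gave -0.47 ± 0.152, the glucosyltransferase gene *Alg8* gave -2.07 ± 0.673, *Manf*, a secreted ER stress factor, gave -0.68 ± 0.31, and *Pdia4*, a disulfide isomerase, gave -0.59 ± 0.271. *Atf4*, a transcription factor of the integrated stress response, went the other way at 0.39 ± 0.191, and *Xbp1* at -0.22 ± 0.221, *Ddit3* at 0.06 ± 0.3 and *Hyou1* at -0.17 ± 0.208 lay within about 1 SE of 0. Other oligosaccharyltransferase genes of the list did not share the size of the *Stt3a* estimate. *Stt3b* (-0.04), *Rpn1* (-0.18), *Rpn2* (0.04), *Dad1* (0.07) and *Tusc3* (-0.11) lay within 1 SE of 0, and *Ddost* gave 0.29 ± 0.215. In wild-type mice, 16 of the 32 were higher in the Acb at an adjusted p under 0.05 (6.16% of all genes tested), and in rpS6P-/- mice 4 were (5.1%). The difference between these 2 region effects is the interaction itself, so the 2 counts are not a separate observation. In heavy polysomal fractions the list had a median interaction of -0.01, beside 0.02 over the better covered genes.

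*Htr2c* encodes the serotonin 2C receptor, whose RNA marks the Acb. It had 119, 115 and 138 CPM in Acb wild-type and 110, 108 and 106 CPM in Acb rpS6P-/-. In the DS it had 37.3, 27.98 and 27.8 CPM in wild-type and 47.6, 51.3 and 42.9 CPM in rpS6P-/-. Genotypes were apart in both regions, and the estimate was -0.80 ± 0.2. *Sparc*, a matricellular glycoprotein made by glia and higher in the Acb by 2.70 (wild-type) and 2.02 (rpS6P-/-), gave -0.68 ± 0.193, with DS libraries at 26.7 to 33.8 CPM in wild-type and 38.1 to 43.6 CPM in rpS6P-/-. *Pdlim5*, a PDZ and LIM domain protein of the actin cytoskeleton, gave -1.34 ± 0.345, and *Plce1*, a phospholipase C, gave -1.75 ± 0.478, both without overlap in either region. *Ptgds*, prostaglandin D2 synthase of meninges, choroid plexus and oligodendrocytes, gave -0.71 ± 0.211 with 110, 176 and 115 CPM in Acb wild-type and 93.0, 73.5 and 99.3 CPM in Acb rpS6P-/-. *Cib1*, a calcium-binding protein, gave -1.92 ± 0.585 at 3.46 to 11.4 CPM.

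Among genes with a mean of at least 50 reads and an unadjusted p under 0.05, the largest estimates came from thinly counted genes. *Gabrq*, a GABA-A receptor subunit gene, was at 6.07 to 14.5 CPM in all Acb libraries and under 1 CPM in all DS libraries, with 19, 8 and 1 reads in DS wild-type and 3, 1 and 0 in DS rpS6P-/-. Its estimate of 2.84 ± 0.945 rests on these few reads. *Dkkl1* had 9, 0 and 0 reads in Acb wild-type and 11, 16 and 14 in Acb rpS6P-/-, for an estimate of 2.82 ± 0.956. *Cyp2u1* gave 2.13 ± 0.846, *Zfp493* -2.31 ± 0.719, *Zfp551* -2.16 ± 0.866 and *Hif3a* -2.10 ± 0.914. In *Ecscr*, an endothelial surface protein gene, Acb wild-type had 25, 37 and 40 reads and Acb rpS6P-/- had 0 in each library, with 19, 10 and 11 and then 1, 23 and 23 in the DS. The potassium channel gene *Kcnk4* had 10, 21 and 5 reads against 0 in each library in the same 2 groups. *Otx2* had 40, 35 and 6 and then 54, 107 and 28 reads in the Acb, 0, 8 and 17 in DS wild-type and 0 in each DS rpS6P-/- library. *Avp*, encoding vasopressin, had 8, 21 and 30 and then 20, 17 and 11 reads in the Acb, 18, 0 and 14 in DS wild-type and 0 in each DS rpS6P-/- library. Fitted folds of these last 4 genes depend on the prior count and are not given.

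*Tmem38b*, which encodes an intracellular cation channel and lies on chromosome 4 with *Rps6*, had 109, 101 and 782 CPM in Acb rpS6P-/- and 80.4, 43.6 and 124 CPM in Acb wild-type. All DS libraries were between 85.6 and 134 CPM. Only Acb rpS6P-/- replicate 3 was high, and without it the interaction estimate went from 1.82 to 0.17. In heavy polysomal fractions other libraries were high, Acb wild-type replicates 1 and 2 with 1072 and 638 CPM and Acb rpS6P-/- replicate 1 with 549 CPM, so the level did not follow genotype. *Cwc22* had 23.9, 80.1 and 24.1 CPM in Acb wild-type and 61.9, 75.6 and 74.9 CPM in Acb rpS6P-/-, against 45.3, 25.8 and 16.2 CPM and 69.5, 91.8 and 88.4 CPM in the DS. It rose in DS rpS6P-/- by 1.504 (edgeR, adjusted p = 0.000756). Its interaction estimate of -0.78 ± 0.338 rests on Acb wild-type replicate 2 and was 0.04 without that library. Of 26 tested genes within 5 Mb of *Rps6*, 0 passed for the interaction after adjustment and 1, *Mllt3* (-0.63 ± 0.27), had an unadjusted p under 0.05, beside 5.11% of all genes.

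The region difference itself, Acb over DS, was tested in each genotype. It passed for 1982 genes in wild-type (12.1%) and for 1738 genes in rpS6P-/- (10.6%), in separate libraries, and 1172 genes passed in both, all in the same direction. These were 59.1% of the wild-type calls and 67.4% of the rpS6P-/- calls, and Spearman's rho of the 2 region effects was 0.598 over the 11491 better covered genes. Of the wild-type calls, 97.5% had the same sign in rpS6P-/-. Of the 8 ventral striatum markers 7 were higher in the Acb in each genotype (adjusted p under 0.05, edgeR), beside 6.16% of all genes in wild-type and 5.1% in rpS6P-/-. Of the 5 dorsal markers 3 were higher in the DS in wild-type, beside 5.95% of all genes, and 4 in rpS6P-/-, beside 5.52%. Against its label, 1 of the 5 was higher in the Acb in wild-type, beside 6.16% of all genes, and 0 were in rpS6P-/-, beside 5.1%. *Cartpt*, a neuropeptide precursor of the ventral striatum, had 25.2, 33.6 and 29.4 CPM in Acb wild-type, 32.0, 19.3 and 45.3 in Acb rpS6P-/-, 4.48, 8.90 and 5.54 in DS wild-type and 3.37, 3.51 and 4.75 in DS rpS6P-/-, for an estimate of 0.83 ± 0.398. All 5 dorsal markers had negative estimates, with a median of -0.29 and a summed level in the DS of 762 to 777 CPM in wild-type and 827 to 996 CPM in rpS6P-/-, led by *Reln* at -0.69 ± 0.240, the gene of the matrix protein reelin.

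In the gene lists by function and cell type, 0 members passed for the interaction after adjustment. Among medium spiny neuron genes 7 estimates were positive and 4 negative, with a median of 0.01, from -0.10 to 0.21. *Arpp21*, a cAMP-regulated phosphoprotein with the highest counts of the list, had 1748 to 2013 CPM and 1893 to 2085 CPM in Acb wild-type and rpS6P-/- and 1659 to 2252 CPM and 1821 to 2078 CPM in the DS, and an estimate of 0.00 ± 0.132. *Ppp1r1b*, encoding DARPP-32, gave 0.21 ± 0.134, *Drd1a* (the D1 dopamine receptor) -0.07 ± 0.157 and *Penk*, the enkephalin precursor of indirect pathway neurons, -0.23 ± 0.149. The 23 genes of dopamine and cAMP signalling had a median of 0.07 and the 25 genes of rpS6 kinases and mTOR a median of 0.02, with 0 members of either at an unadjusted p under 0.05. Of the 12 immediate early genes *Nr4a1*, a nuclear receptor induced by activity, gave 0.46 ± 0.218, and the list median was 0.18.

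Of 37 complex I genes 4 had a positive and 2 a negative estimate at an unadjusted p under 0.05, beside 2.54% and 2.57% of all genes tested, for a list median of 0.06. *Ndufb10* gave 0.49 ± 0.185, while *Ndufa5* gave -0.47 ± 0.185 and *Ndufa3* -0.47 ± 0.190. In complexes II to V the split was 4 and 1 of 48, beside the same 2.54% and 2.57%, with *Cox5b* at 0.54 ± 0.192, *Atp5d* at 0.51 ± 0.186 and *Cox7c* at -0.62 ± 0.221. Of 76 mitochondrial ribosomal protein genes 49 estimates were positive and 27 negative (median 0.14), led by *Mrpl12* at 0.82 ± 0.264. Of 82 cytosolic ribosomal protein genes 49 were positive and 33 negative (median 0.04), with 0 at an unadjusted p under 0.05. *Rpl27a* was among the genes that fell in the DS (by 0.63, edgeR adjusted p = 0.0171) and had an interaction estimate of 0.35 ± 0.174.

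The 16 glycolysis genes had a median of 0.11, and their summed level was 8307 to 8445 CPM in DS wild-type and 7827 to 7879 CPM in DS rpS6P-/-, without overlap, while the Acb genotypes overlapped. Of the better covered genes taken singly, 15.3% did not overlap in the DS. The 15 tricarboxylic acid cycle genes had a median of 0.03.

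Of 42 glutamate and GABA receptor genes 27 were negative and 15 positive, with a median of -0.09. Their summed level was 3402 to 3639 CPM in DS wild-type and 3788 to 3944 CPM in DS rpS6P-/-, without overlap, and the Acb genotypes overlapped. In the DS 15.3% of the better covered genes taken singly did not overlap. *Gria2*, the AMPA receptor subunit that limits calcium entry, had 429, 461 and 365 CPM and 484, 402 and 368 CPM in the Acb, and 347, 344 and 324 CPM in DS wild-type against 417, 465 and 472 CPM in DS rpS6P-/-. Its genotypes were apart in the DS and overlapped in the Acb, for an estimate of -0.41 ± 0.151. *Grin2d*, an NMDA receptor subunit, gave -2.88 ± 0.956 at 0.468 to 7.27 CPM, and *Gabra3* gave -0.40 ± 0.180. Of 83 potassium channel genes 50 were negative and 33 positive (median -0.07), with *Kcnk1* at -0.68 ± 0.237 and *Kcnab3* at 0.88 ± 0.374. *Malat1*, a nuclear RNA, gave -0.50 ± 0.184 with 516, 595 and 936 CPM in Acb rpS6P-/- against 795 to 1023 CPM in Acb wild-type.

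**Figure D5:**
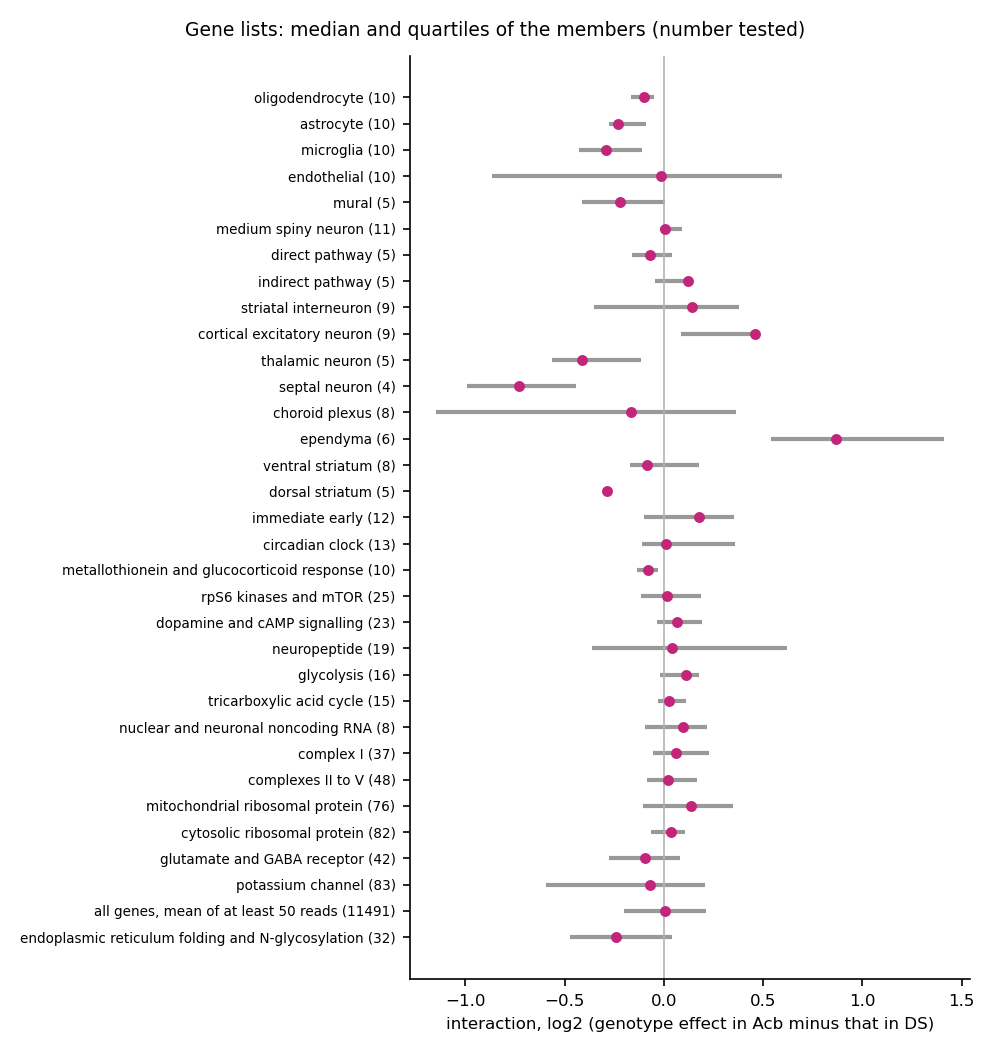
Interaction estimates (log2, horizontal axis) of gene lists, with the median of the tested members as a magenta point and the span between the lower and upper quartiles as a grey line; the number tested is in brackets. Lists with under 4 tested members are left out, as are the sex-linked list, the genes near *Rps6* and the list of genes that the study names. The ER list, written after values had been seen, is drawn with the others. Most pathway and family medians lie within 0.2 of 0, ependyma (0.87) lies farthest to the right and septal neuron (-0.73) farthest to the left of the lists drawn.

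Markers of other cell types were counted in the same way. All 10 astrocyte markers had negative estimates (median -0.23), from -0.65 to -0.01. *Slc1a2*, the main glutamate transporter, had the lowest p of the list, at -0.34 ± 0.147. The summed level of the astrocyte markers was 2489 to 2974 CPM and 2273 to 3170 CPM in Acb wild-type and rpS6P-/-, and 1756 to 1886 CPM and 1891 to 2155 CPM in the DS, where they did not overlap. The choroid plexus sum did not overlap in the DS either, at 96.9 to 112.9 CPM in wild-type and 119.7 to 130.7 CPM in rpS6P-/-. Most reads in that sum were of *Enpp2*, with 18582 over the 12 lysates, beside 3404 for *Clic6* and 406 for *Ttr*. Of the 8 choroid plexus members tested, 3 had a higher and 5 a lower estimate in DS rpS6P-/-, with a median of -0.118. Single better covered genes did not overlap in the DS in 15.3% of cases. Of 10 microglia markers 9 were negative (median -0.29), of 10 oligodendrocyte markers 8 (median -0.10), and of 5 thalamic neuron markers 4 (median -0.41). All 4 septal neuron markers were negative (median -0.73), with a summed level of 52.7 to 69.0 CPM in Acb wild-type and 32.5 to 68.2 CPM in Acb rpS6P-/-, while 8 of 9 cortical excitatory neuron markers were positive (median 0.46) and 5 of 6 ependyma markers were (median 0.87). The ependymal sum was 22.2, 25.4 and 40.9 CPM in Acb wild-type, 38.8 to 42.3 CPM in Acb rpS6P-/-, 6.47 to 18.6 CPM in DS wild-type and 5.97 to 9.51 CPM in DS rpS6P-/-. *Foxj1*, which drives motile cilia, gave 1.56 ± 0.662. Of 7 blood markers, the 6 globin genes had 0 reads in every lysate, while *Alas2* had 500 over the 12 libraries. The ribosomal protein gene *Rpl26* and the complex I gene *Ndufs5* also had 0 reads there. The cause of these zeros was not tested, so they are not read as absence of blood RNA. *Slc17a7*, encoding the vesicular glutamate transporter of cortical neurons, had 112, 58.6 and 51.6 CPM in Acb wild-type and 47.7, 106 and 137 CPM in Acb rpS6P-/-, and its estimate of 0.47 ± 0.250 ranged from 0.14 to 0.91 as single libraries were left out. In the Acb the genotypes overlapped for each of these sums, and the part of dissection or cell makeup in the gene estimates was not tested.

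Sex-linked RNAs were counted because mice of both sexes were used and the sex makeup of each pool is not given in the sources used here. Reads of the Y-linked *Ddx3y* stood at 36.9, 36.1 and 52.2 CPM in Acb wild-type, 19.5, 37.8 and 20.8 CPM in Acb rpS6P-/-, 26.1, 21.5 and 29.7 CPM in DS wild-type and 20.3, 16.6 and 51.7 CPM in DS rpS6P-/-. *Ddx3y* gave an interaction of -0.88 ± 0.356, *Uty* -1.39 ± 0.557 and the X-linked *Xist* 2.70 ± 1.139. The part of the sex makeup of the pools in the other estimates was not tested.

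Base composition moved with the interaction as well. Genes with a positive estimate at an unadjusted p under 0.05 had a median transcript GC content of 54.6% (297 genes with a value) and those with a negative estimate 46.9% (267 genes), beside 49.5% over all better covered genes. Spearman's rho with GC content was 0.233 for the interaction, -0.0555 for the genotype effect in the Acb and -0.353 for that in the DS. By library, rho of the level relative to the mean of all 12 was 0.198 and 0.169 in DS wild-type replicates 2 and 3, -0.037 in replicate 1 and -0.127 to -0.194 in DS rpS6P-/-, against -0.118 to 0.116 in the Acb. The part of base composition in the estimates was not tested beyond what follows. With the trend on GC content removed from each library, an alternative chosen after seeing the data, the estimates were 1.002 for *Kif3a*, 0.52 for *Nrgn*, 1.16 for *Prrt1*, -0.70 for *Hspa5*, -0.69 for *Htr2c*, -1.23 for *Stt3a* and 0.70 for *Jund*, all in the same direction, and *Kif3a* and *Tmem38b* passed. Positive genes named above tended to be GC-rich (*Nrgn* 58.6%, *Prrt1* 62.5%, *Jund* 67.1%) and negative ones poorer in GC (*Stt3a* 40.5%, *Htr2c* 42.1%, *Pdlim5* 44.1%), with exceptions such as *Tmem38b* (41.6%) and *Kif3a* (47.6%) among the positive and *Ptgds* (56.4%) among the negative.

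In heavy polysomal fractions the same interaction passed for 1 of 16880 genes (0.00592%), *Ndufa3*, a complex I subunit, with an unadjusted p under 0.05 for 2334 genes (13.8%). The count depended on the settings, with 353 genes without a filter on low counts, 236 with DESeq2, 117 with a replicate block on number and 0 to 183 with 1 library left out (183 without Acb rpS6P-/- replicate 1). *Ndufa3* had 122, 94.8 and 69.6 CPM in Acb wild-type and 57.2, 39.9 and 29.96 CPM in Acb rpS6P-/-. In the DS it had 101, 58.3 and 84.9 CPM in wild-type and 128, 136 and 206 CPM in rpS6P-/-. Genotypes were apart in both regions, for -2.12 (edgeR, adjusted p = 0.0225), where lysates gave 99.5 to 141 CPM in the Acb and 73.9 to 126 CPM in the DS and an estimate of -0.47. The direct test of the lysate against the polysomal interaction over all 24 libraries passed for 0 of 17365 genes with edgeR, with 1623 genes (9.35%) at an unadjusted p under 0.05, while DESeq2 called 3 genes. The methods describe lysate RNA as kept from the samples that were loaded on the gradients, so a lysate and a heavy fraction with the same number may share a lysate. Deviations of such pairs from their group means correlated at -0.0377 to 0.0743. With a replicate block on the shared sample, added after seeing the data, 187 genes passed, 180 of them with the higher interaction in lysates, *Ndufa3* among them (difference of 1.67, edgeR adjusted p = 0.000171) and *Kif3a* not (adjusted p = 0.821 with edgeR). With a block on the number alone 23 genes passed. For a list of 29 genes that the study names from these data, not all that it names, the median interaction was -0.06 in lysates and -1.62 in heavy polysomal fractions, and since the study chose them on these samples this is no independent evidence. *Pcp4*, a calmodulin regulator of this list, gave 0.03 ± 0.143 in lysates and -1.98 in heavy polysomal fractions, and *Cox7c* gave -0.62 and -1.97. *Kif3a* had 109, 137 and 83.7 CPM in Acb wild-type polysomes, 136, 116 and 156 CPM in Acb rpS6P-/-, 188, 143 and 137 CPM in DS wild-type and 142, 106 and 146 CPM in DS rpS6P-/-, with an interaction of 0.55 there (adjusted p = 0.361 with edgeR), and its difference from the lysate value of 0.92 did not pass (adjusted p = 0.795 with edgeR). Across genes the lysate and polysomal interactions had a Spearman rho of 0.0699.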

How the data were processed

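Whole-lysate RNA (kept from the cytosolic lysate before the gradient) was sequenced as stranded poly-A libraries with single 50-base reads. Repeated runs were needed because of bacterial sequences, per the study's methods. They pool tissue of 2 mice per sample and give 4 mice per replicate for heavy polysomal fractions, where other places in the study give 6 or 2. The authors aligned reads to mm10 (GRCm38) with TopHat2 2.0.13 and Bowtie2 2.2.3, discarded alignments with more than 3 mismatches and counted with HTSeq 0.6.1p1. They deposited raw counts for 24079 genes without normalization. No source used here says that same-numbered lysates of the 2 regions came from the same mice.

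Genes with at least 15 reads over the 12 lysate libraries were tested with edgeR 4.0.16 (TMM, quasi-likelihood F test with legacy settings, 4 group means, Benjamini-Hochberg) in R 4.3.3. SE is the absolute log2 estimate divided by the root of F, and intervals cover 95%. The spread is that between replicates of pooled mice. Heavy polysomal libraries, and all 24 together, were fitted alike. Alternatives were DESeq2 1.42.0, limma-voom (limma 3.58.1), other scalings, filters, blocks and trends, and leaving out each library. The test was tried on simulated counts.

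Members, gene lists and alternatives were chosen with earlier results of these data known. Genes named are those that passed, the 8 in each direction of lowest p among genes with a mean of at least 50 reads, the 3 in each direction of largest estimate among those with an unadjusted p under 0.05, 5 genes (*Rps6*, *Ecscr*, *Tmem38b*, *Cwc22*, *Bc1*) and, per list, the members of lowest p, of highest count and with an unadjusted p under 0.05. Genes of the ER list and genes with *Bc1*-like stretches were chosen after their values were seen. GC content is that of the longest GENCODE M21 transcript (98.2% of better covered genes matched), and positions are from RefSeq (GRCm38.p6). *Bc1* was compared with 141767 transcripts through shared runs of 16 bases. Genes at 0 in a group had no effect on list medians when set to 3 reads over the group, except ependyma (0.97), complexes II to V (0.01) and neuropeptides (0.04 and 0.05). Figures used Python 3.11.15, pandas 2.3.3 and matplotlib 3.10.9.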

Additional observations from a re-analysis of the deposited data

Results flagged for a closer look

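Both results below differed between the regions by a direct test of the interaction. In whole lysates, *Kif3a* had a genotype effect that was higher in the Acb than in the DS by 0.92 on the log2 scale (edgeR, adjusted p = 0.00848), and 20 of the 28 other settings also called it. A *Kif3a* transcript holds the *Bc1*-like stretch given above, and how many reads counted for *Kif3a* came from *Bc1* was not tested. In heavy polysomal fractions, *Ndufa3* had a genotype effect that was lower in the Acb than in the DS by a log2 difference of -2.12 (edgeR, adjusted p = 0.0225). It was called in 12 of 18 other settings, and the call was lost with filterByExpr and on leaving out Acb wild-type replicate 1, Acb rpS6P-/- replicate 3, DS wild-type replicate 2 or DS rpS6P-/- replicate 2 or 3, with values of -2.43 to -1.56 over all settings and adjusted p-values up to 0.164 in edgeR.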

How the results depend on the processing

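The count of 1 gene for the lysate interaction became 0 with filterByExpr, DESeq2, robust empirical Bayes or all 24 libraries, 3 without a filter, 2 with the GC trend removed, and 0 to 4 as single libraries were left out (0 without Acb wild-type replicate 1 or DS rpS6P-/- replicate 3, 4 without Acb wild-type replicate 3). Acb calls numbered 0 with filterByExpr, robust empirical Bayes or all 24 libraries, 1 with DESeq2 (*Ecscr*), limma-voom (*Kif3a*) or the Acb alone (*Tmem38b*), 4 without a filter, and 1 to 3 without a library (1 without Acb wild-type replicate 1). DS calls numbered 0 under the first 3 of these settings, 2 with limma-voom, 3 with the GC trend removed, 5 with the length trend removed, 6 with DESeq2 size factors or without *Bc1*, 18 without a filter or with DESeq2, 19 with the DS alone, and 0 to 26 without a library (0 without DS wild-type replicate 2, 26 without its replicate 1). Region effects stayed within 1.5 times, with 1398 to 2153 calls in wild-type and 1242 to 1812 in rpS6P-/- as libraries were left out. In heavy polysomal fractions calls went from 1 to 0 with filterByExpr, 353 without a filter, 236 with DESeq2, 28 with a length or a GC trend removed, and 0 to 183 without a library (183 without Acb rpS6P-/- replicate 1). The lysate and polysomal interactions differed for 126 genes without a filter, 3 with DESeq2, 1 with the length trend removed and 0 to 90 without a library. The cause of these changes was not tested.

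Deviations of same-numbered Acb and DS lysates correlated at -0.0291 to 0.027, so numbers were not taken to pair the samples, and not every sample correlated best with its own number. A replicate block on number gave 6 interaction calls, 4 in the Acb, 25 in the DS, 117 in polysomes and 23 for the difference of interactions (187 with a block on the sample that a lysate and a heavy fraction may share), and a block on genotype and number gave 5, or 6 with the length trend and 3 with the GC trend removed. Among 107 named genes in 28 settings, 1 value turned direction, *Cwc22* without Acb wild-type replicate 2 (0.043, with a range over single libraries left out of -1.269 to 0.043). With 3 pooled samples per group and lysate depths down to 9280589 reads, the 95% interval of the interaction reached a median of 0.602 to either side.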
